A study of Homo sapiens with 5 samples.

Results

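The nuclear-encoded subunits of the mitochondrial respiratory chain and ATP synthase were examined in mammary epithelial cells in which JUN, a DNA-binding subunit of the AP-1 transcription factor, was raised from its own promoter. A member was any protein-coding row whose symbol began with NDUFA, NDUFB, NDUFC, NDUFS, NDUFV, UQCR, COX4, COX5, COX6, COX7, COX8 or ATP5, leaving out the NDUFAF assembly factors, together with SDHA to SDHD and CYC1. This gave 89 of the 23459 genes of the table, namely 38 for complex I, 4 for complex II, 10 for complex III, 17 for complex IV and 20 for complex V. The 5 libraries were made by 3′ mRNA sequencing from MCF10A SAM cells, a derivative of the immortalised human breast epithelial line MCF10A obtained by picking single clones. Whether both groups came from 1 clone is not stated. All of them carried dCas9-VP64 and MCP-p65-HSF1, which are activator proteins that a guide RNA brings to a chosen promoter, and all grew in serum-containing medium with insulin, hydrocortisone, cholera toxin and EGF. The 3 NTC libraries had a non-targeting control guide, and the 2 sgJUN#1 libraries had a guide against the JUN promoter. The study calls its sequencing replicates biological, but neither it nor the labels say whether these libraries came from separate cultures, so part of the spread that the tests measure may be technical.

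The respiratory chain moves electrons from NADH (complex I) and succinate (complex II) through ubiquinol and cytochrome c (complexes III and IV) to oxygen, and complexes I, III and IV pump protons that drive ATP synthase, complex V. Most subunits are encoded in the nucleus and imported, while a small catalytic set is encoded by mitochondrial DNA. The nuclear genes lie on many chromosomes and are known for being transcribed in nearly every cell type, with NRF1, ETS-family factors such as GABP, and YY1 among the factors known to bind their promoters. Some complex IV subunits exist in a common form and a form restricted to muscle, lung or testis.

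Library totals ran from 2455627 to 4988062 counts. In the shallowest library 3 counts, set as the floor for an empty row, came to 1.22 CPM (counts per 1e+06 of the scaled library size), and in the deepest to 0.619 CPM. JUN itself (GRCh37 chromosome 1, 59242517 to 59249720) stood at 25.0, 36.2 and 9.32 CPM in NTC replicates 1 to 3 and 172 and 265 CPM in sgJUN#1 replicates 1 and 2, with every NTC library below both sgJUN#1 libraries. Its log2 fold change, sgJUN#1 over NTC, was 3.25 (SE 0.484), which edgeR's quasi-likelihood test did not call over all genes (adjusted p-value 0.0733), and an exact two-sided permutation test gave 0.1, the smallest p-value that 3 against 2 libraries allow. JUN was called by DESeq2 (adjusted p-value 7.36e-12), by limma-voom (limma adjusted p-value 0.0342) and by edgeR with the replicate number as a block (log2 fold change 2.82, adjusted p-value 1.15e-04). NTC replicate 3 has no sgJUN#1 counterpart, so fold changes of the block fit rest on replicates 1 and 2 alone. All 8 epithelial markers fixed for this line were measured in both groups, EGFR and KRT5 at more than 100 CPM in every library, KRT14 at no more than 3.26 CPM and KRT17 with 0 counts in NTC replicate 1. Some markers differed between the groups without passing the threshold. EPCAM had 23.7, 7.33 and 23.3 CPM in NTC against 144 and 56.5 CPM in sgJUN#1, which gave a log2 fold change of 2.44 (95% confidence interval 1.24 to 3.64, edgeR adjusted p-value 0.210). KRT17 was likewise higher in both sgJUN#1 libraries than in any NTC library, while EGFR and KRT14 were lower, EGFR at 291, 389.5 and 673 CPM in NTC against 278 and 287 CPM in sgJUN#1. CDH1 had 29.7, 35.4 and 57.9 CPM in NTC against 103 and 44.4 CPM in sgJUN#1, and the groups overlapped. Its log2 fold change was 0.85 (95% confidence interval -0.019 to 1.72, edgeR adjusted p-value 0.607). The groups also overlapped for KRT5, TP63 and KRT18. Summed over the epithelial markers the level was 606 to 1265 CPM in NTC and 591 to 861 CPM in sgJUN#1. Of the 8 fibroblast, immune and endothelial markers, 2 had enough counts to be tested, CD68 and VWF. CD68 had 6.33, 8.14 and 3.11 CPM in NTC against 11.4 and 16.1 CPM in sgJUN#1. Its log2 fold change was 1.26 (95% confidence interval 0.34 to 2.19, edgeR adjusted p-value 0.416), while that of VWF was -0.0034. On few counts, COL1A1, COL3A1 and PECAM1 were higher on average in sgJUN#1 and PDGFRB and PTPRC lower. CD3E had 0 counts in all libraries. The summed level was 14.0 to 17.1 CPM in NTC and 22.7 to 26.5 CPM in sgJUN#1. The part of these marker differences in the values of the respiratory chain was not tested. The mitochondrially encoded subunits had no row (0 of 13), so every value here concerns the nuclear part of the chain. In these bulk libraries a change in the RNA of each cell and a change in the mix of cells cannot be told apart.

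Promoters of the members are shown first, because AP-1 sites are among the DNA sites that JUN is known to bind. Whether these letters have a part in the values of the members was not tested, and sites outside the windows were not searched. RefSeq windows on GRCh38.p14, each from 250 bases before to 50 bases after a transcription start, were at hand for 71 members (84 windows), and each was searched on both strands. The NRF1 core GCATGCGC occurred in 15 of the 84 windows (17.9%) and in 3.05% of all 35116 windows of that length. The ETS core CCGGAAG occurred in 22 windows (26.2%, against 10.3% of all), the YY1 motif AAGATGGCG in 10 (11.9%, against 1.75%), and the CRE-like site TGACGTCA in 5 (5.95%, against 1.85%). The AP-1 site TGAGTCA, which reads TGACTCA on the other strand, occurred in 0 of the 84 windows, and in 4.95% of all windows. No motif holds another, but an ETS and a YY1 match can share the letters AAG. A match is a description of the letters and not of binding, and the absence of one says only that these letters are not in the window. The 250 bases before the start are printed for SDHD, NDUFB4 and ATP5F1C, where the NRF1 core is read on both strands at one place, and for UQCRQ, the member with the highest fold change. Capitals mark the motifs, and all 4 stretches lie on the plus strand.
SDHD, chr11:112086623-112086872: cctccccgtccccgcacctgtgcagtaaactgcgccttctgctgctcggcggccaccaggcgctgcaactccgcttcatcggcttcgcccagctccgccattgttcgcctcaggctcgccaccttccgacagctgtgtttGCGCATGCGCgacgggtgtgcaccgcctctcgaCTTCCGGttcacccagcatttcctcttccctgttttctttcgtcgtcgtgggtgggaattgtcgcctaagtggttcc
NDUFB4, chr3:120596086-120596335: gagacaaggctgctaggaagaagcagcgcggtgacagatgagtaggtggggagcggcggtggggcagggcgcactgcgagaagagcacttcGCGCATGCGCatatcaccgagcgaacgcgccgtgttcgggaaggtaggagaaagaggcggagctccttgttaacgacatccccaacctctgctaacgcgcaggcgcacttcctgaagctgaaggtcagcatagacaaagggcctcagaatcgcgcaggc
ATP5F1C, chr10:7787927-7788176: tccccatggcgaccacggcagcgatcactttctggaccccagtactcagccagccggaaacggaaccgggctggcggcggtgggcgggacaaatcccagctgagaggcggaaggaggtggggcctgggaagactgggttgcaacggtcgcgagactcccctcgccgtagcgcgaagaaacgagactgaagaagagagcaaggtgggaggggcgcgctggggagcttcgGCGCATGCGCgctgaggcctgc
UQCRQ, chr5:132866392-132866641: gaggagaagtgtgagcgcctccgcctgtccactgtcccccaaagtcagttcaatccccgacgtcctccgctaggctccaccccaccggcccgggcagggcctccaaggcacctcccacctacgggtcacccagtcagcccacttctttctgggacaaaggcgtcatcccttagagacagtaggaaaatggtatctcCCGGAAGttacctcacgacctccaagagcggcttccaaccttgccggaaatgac
In SDHD, a membrane anchor of complex II, the NRF1 letters spanned positions -110 to -101 and an ETS core positions -77 to -71, counted back from the transcription start. They lay at -159 to -150 in NDUFB4 and at -22 to -13 in ATP5F1C, and UQCRQ had an ETS core at -54 to -48.

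To ask whether raised JUN was accompanied by a change in the respiratory chain, all genes were tested together and the members were read from that fit. No subunit mRNA passed the test, and fold changes were small. Of 89 members, 84 had enough counts to be tested, and 0 passed an edgeR adjusted p-value of 0.05, where 0.206% of all 13616 tested genes passed. None of the 84 had an unadjusted p-value under 0.05 either, against 8.38% of all tested genes, and 0 were called by DESeq2 (0.975% of all genes with an adjusted p-value), by limma-voom (0.147%), with the replicate number as a block (0.756%) or with no filter on low counts (0.756%). Adjusted p-values ran from 0.669 to 0.989, and log2 fold changes from -0.46 (NDUFS7) to 0.44 (UQCRQ). The median absolute log2 fold change was 0.15 over the members and 0.23 over all tested genes, which were not matched to the members for expression level. The edgeR 95% confidence interval stayed within a 2-fold change in either direction for 80 of the 84 members, and for 22 it stayed within 1.5-fold. The 4 members with wider intervals were among those with few counts, ATP5MGL (3 to 23 counts per library), COX7B2 (9 to 26), ATP5F1D (14 to 53) and NDUFS7 (26 to 68). For the rest a change of 2-fold or more lay outside the interval, and for the 22 so did a change of 1.5-fold or more. Smaller changes could not be told from none at this depth and replication. The 4 members with wider intervals are named after their values were seen.

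**Figure D1:**
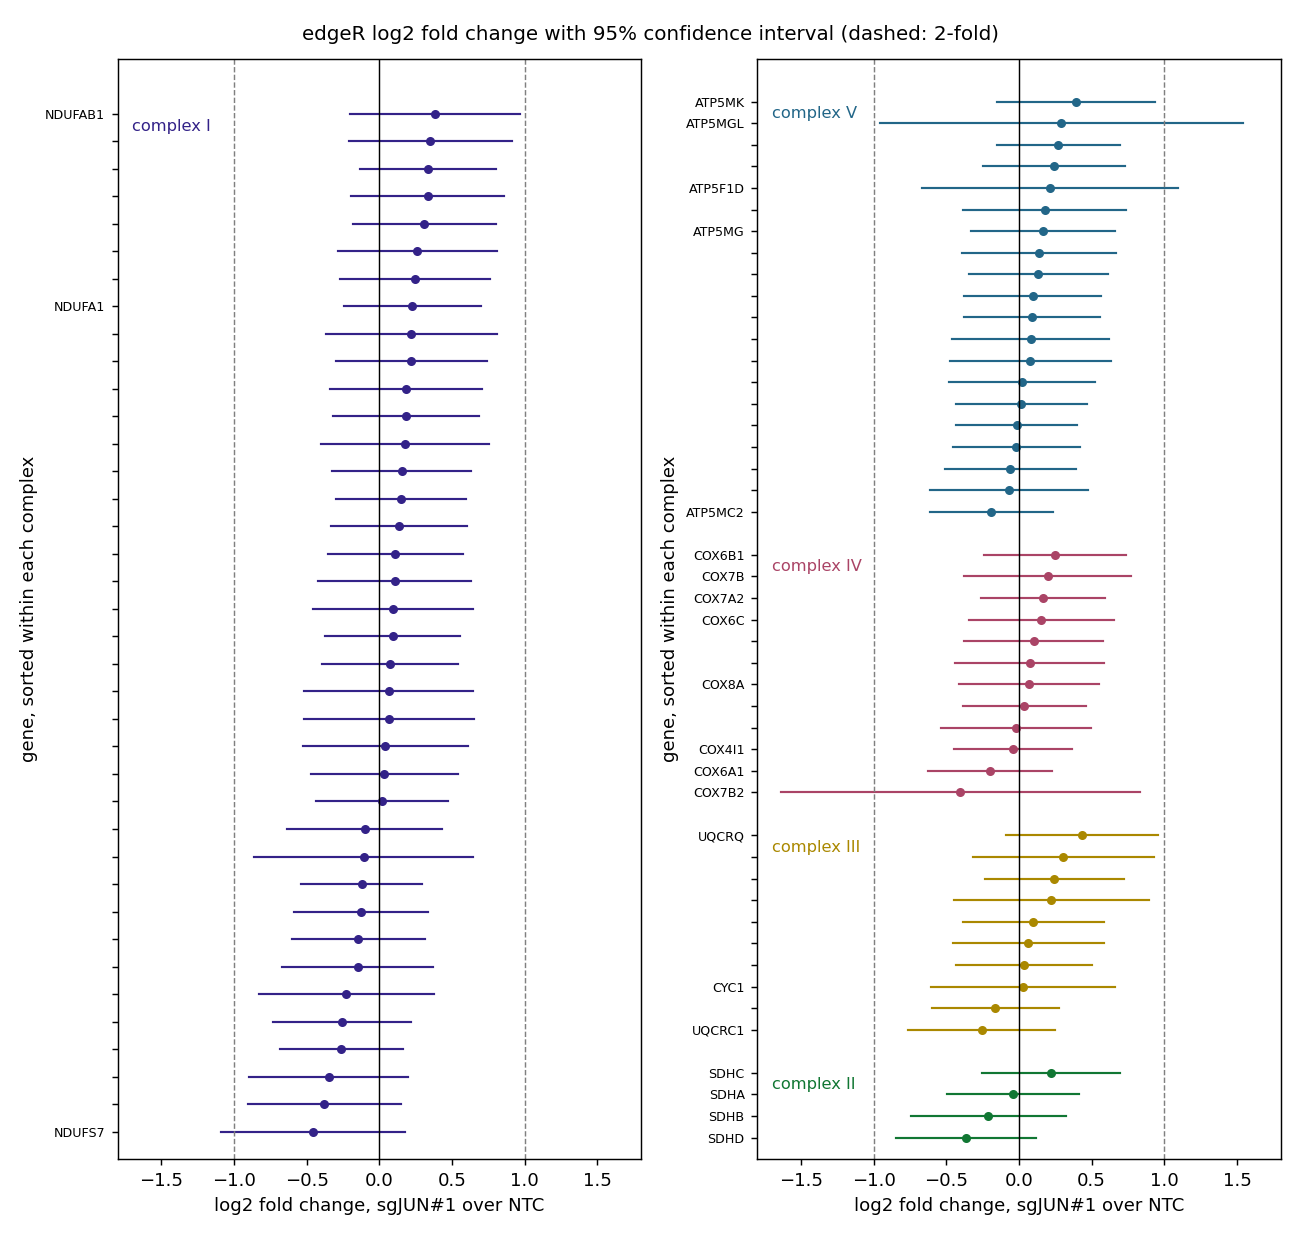
The plot of fold changes shows each of the 84 tested members as a point at its edgeR log2 fold change (horizontal axis, sgJUN#1 over NTC) with its 95% confidence interval as a bar, sorted within each complex, with dashed lines at a 2-fold change and with the names of a part of the genes on the vertical axis. All bars cross 0, all points lie between -0.46 and 0.44, and the widest bars belong to COX7B2 and ATP5MGL.

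Fold changes leaned slightly upward. In sgJUN#1, 58 of the 84 members (69.0%) were higher on average and 26 lower, where 49.0% of all tested genes were higher. The median log2 fold change was 0.086 over the members and -0.0082 over all tested genes. Taken gene by gene, the difference of the group means on the log2 CPM scale was below the SD of the 3 NTC libraries in 64 of the 84 members (76.2%, against 59.6% of all tested genes). The lean rested on single libraries. Without NTC replicate 1 the median was 0.24 with 68 members higher, and 9 members had an unadjusted p-value under 0.05, against 9.97% of all genes in that fit. Without NTC replicate 2 the median was 0.012 (43 higher), and without NTC replicate 3 it was 0.0008 (44 higher). Without sgJUN#1 replicate 1 it was -0.0092 (39 higher), and without sgJUN#1 replicate 2 it was 0.16 (64 higher). Over all genes the medians of these fits were, in the same order, -0.010, -0.0065, 0.0027, -0.024 and -0.020. With the replicate number as a block the median over the members was 0.012 (48 higher).

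The 2 sgJUN#1 libraries lay wholly outside the range of the 3 NTC libraries for 10 of the 84 tested members (11.9%), against 25.0% of all tested genes. Of these, 4 were higher in sgJUN#1 (UQCRQ, NDUFA13, NDUFA3 and ATP5F1E), where 12.2% of all tested genes were. The other 6 were lower (SDHD, NDUFS7, NDUFA7, NDUFC1, COX6A1 and ATP5MC2), where 12.8% of all tested genes were. These 10 are named after their values were seen, and 0 of them passed the edgeR threshold.

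Members also differed between libraries of the same group. For each member the log2 CPM of a library was set against that member's NTC mean. The median of this deviation over the 84 members was 0.29, -0.12 and -0.13 in NTC replicates 1 to 3 and 0.18 and 0.031 in sgJUN#1 replicates 1 and 2, while over all tested genes it lay between -0.010 and 0.024 in every library. NTC replicate 1 was thus the highest NTC library and also stood above both sgJUN#1 libraries. It was the highest of all 5 libraries for 56 of the 84 members (66.7%), against 17.5% of all tested genes. It exceeded NTC replicate 2 in 78 members (92.9%, against 48.6% of all genes) and NTC replicate 3 in 75 (89.3%, against 47.3%). In sgJUN#1, replicate 1 exceeded replicate 2 in 66 members (78.6%, against 49.6%). The members share libraries, so these counts describe the 5 libraries and are not independent observations.

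**Figure D2:**
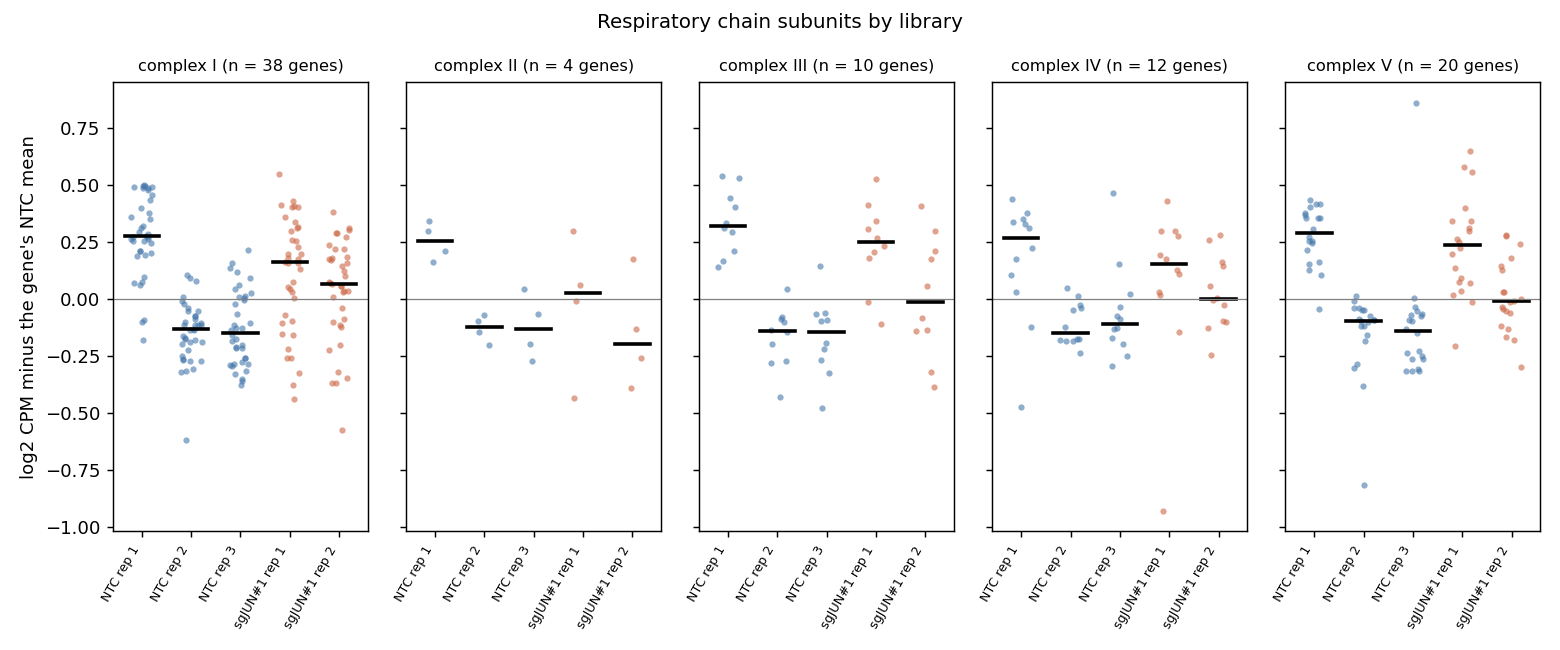
The plot of deviations by library gives 1 panel per complex, with the log2 CPM of each tested member minus its NTC mean on the vertical axis, 1 point per gene, the 5 libraries on the horizontal axis (NTC blue, sgJUN#1 orange) and a black bar at the median. In every complex the median of NTC replicate 1 is the highest, between 0.25 and 0.32, and the medians of NTC replicates 2 and 3 lie below 0.

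The same order was seen when CPM were summed over the subunits of each complex, leaving out the 2 read-through rows described below. The summed level of all members was 20098, 15028 and 14422 CPM in NTC replicates 1 to 3 and 19007 and 16776 CPM in sgJUN#1 replicates 1 and 2, or 16516 ± 3117 CPM (SD, n = 3) against 17892 ± 1578 CPM (SD, n = 2), a ratio of 1.08. Complex I summed to 4739 ± 889 CPM (SD, n = 3) against 5149.7 ± 328 CPM (SD, n = 2) and complex V to 5827 ± 1226 CPM (SD, n = 3) against 6394 ± 622 CPM (SD, n = 2), ratios of 1.09 and 1.10. The corresponding values were 2238 ± 421 CPM (SD, n = 3) against 2446 ± 249 CPM (SD, n = 2) for complex III and 3122 ± 483 CPM (SD, n = 3) against 3313 ± 325 CPM (SD, n = 2) for complex IV, with ratios of 1.09 and 1.06. Complex II was level, at 589.7 ± 106 CPM (SD, n = 3) against 589 ± 53.9 CPM (SD, n = 2), a ratio of 0.999. In all 5 complexes NTC replicate 1 was the highest library and both sgJUN#1 libraries fell between the lowest and the highest NTC library. The differences between group means were smaller than the NTC SD throughout.

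**Figure D3:**
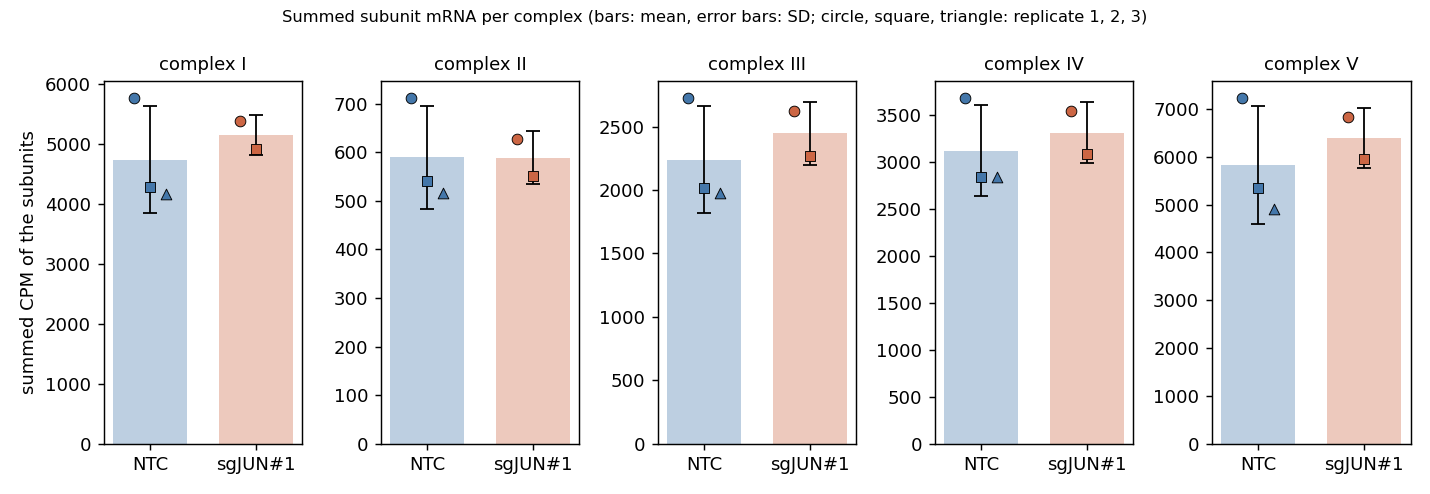
The plot of summed levels shows, for each complex, the CPM summed over its subunits (vertical axis from 0) in NTC (blue) and sgJUN#1 (orange), with bars at the group mean, error bars at the SD (n = 3 and n = 2) and points for single libraries (circle, square and triangle for replicates 1, 2 and 3). Groups overlap in every complex, and the NTC circle (replicate 1) is the highest point in each.

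Complex I, NADH dehydrogenase, is the largest complex of the chain. All 38 of its members were tested, 26 were higher and 12 lower in sgJUN#1, the median log2 fold change was 0.092, and 0 passed the edgeR threshold. The highest fold change belonged to NDUFAB1, the mitochondrial acyl carrier protein, which also serves fatty acid and lipoic acid synthesis (GRCh37 chromosome 16, 23592335 to 23607637). It stood at 540.2, 350.0 and 299 CPM in NTC replicates 1 to 3 and 561 and 473 CPM in sgJUN#1 replicates 1 and 2, which gave a log2 fold change of 0.38 (95% confidence interval -0.20 to 0.97, edgeR adjusted p-value 0.744). The groups overlapped, with NTC replicate 1 above sgJUN#1 replicate 2. The lowest was NDUFS7, an iron-sulfur subunit next to the quinone site (GRCh37 chromosome 19, 1383526 to 1395588), at 12.4, 15.1 and 15.1 CPM in NTC against 11.1 and 9.30 CPM in sgJUN#1. Both sgJUN#1 libraries were below the NTC range by a small margin, on few counts, and the log2 fold change was -0.46 (95% confidence interval -1.09 to 0.18, edgeR adjusted p-value 0.719). NDUFA1, a small membrane subunit that is encoded on the X chromosome and needed for assembly, had the highest mean CPM of the complex and stood at 618, 461 and 428 CPM in NTC against 614 and 561 CPM in sgJUN#1, which gave a log2 fold change of 0.23 (95% confidence interval -0.25 to 0.70, edgeR adjusted p-value 0.815).

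The NDUFV and NDUFS rows of complex I include its flavin and iron-sulfur subunits, and of these 11 rows 6 were higher and 5 lower in sgJUN#1 (median 0.073). They hold the 7 core catalytic subunits, of which 2 were higher and 5 lower. Of the other 31 rows of complex I, 24 were higher and 7 lower. Among the 11 rows, the lowest 3 log2 fold changes were those of NDUFS7, NDUFS8 and NDUFS1, at -0.46, -0.35 and -0.26. The highest 2 were those of NDUFS5 and NDUFS6, outside the core, at 0.35 and 0.33. None of these was called. NDUFV1, which binds NADH and flavin, had 35.8, 26.9 and 38.8 CPM in NTC against 38.4 and 34.7 CPM in sgJUN#1, and the groups overlapped. NDUFS1, the largest iron-sulfur subunit, had 67.4, 50.1 and 59.7 CPM in NTC against 48.9 and 50.1 CPM in sgJUN#1, and both sgJUN#1 libraries lay close to the lowest NTC library. In NDUFV2, another iron-sulfur subunit, NTC replicate 1 was not raised, with 96.0, 108 and 103 CPM in NTC against 92.1 and 96.2 CPM in sgJUN#1.

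Among the remaining rows of complex I, all outside the core, 11 of 13 NDUFA, 7 of 11 NDUFB and 2 of 3 NDUFC rows were higher in sgJUN#1, with medians of 0.15, 0.11 and 0.064. NDUFA13, also known as GRIM-19, a membrane subunit first described as a cell death regulator, had 40.4, 34.2 and 42.1 CPM in NTC against 51.4 and 46.9 CPM in sgJUN#1. Its libraries did not overlap, yet the gap between the groups was small, and the log2 fold change was 0.33 (95% confidence interval -0.13 to 0.80, edgeR adjusted p-value 0.723). NDUFA7 had lower values in both sgJUN#1 libraries, at 55.6, 37.4 and 44.6 CPM in NTC against 34.7 and 36.1 CPM in sgJUN#1, with a log2 fold change of -0.38 (95% confidence interval -0.90 to 0.15, edgeR adjusted p-value 0.720). NDUFC1, a small membrane subunit, likewise had its lowest values in sgJUN#1, at 239, 216 and 228 CPM in NTC against 204 and 176 CPM in sgJUN#1, which gave a log2 fold change of -0.26 (95% confidence interval -0.68 to 0.16, edgeR adjusted p-value 0.759). NDUFB4, whose promoter with its NRF1 motif is printed above, had 151, 114 and 115 CPM in NTC against 117 and 116 CPM in sgJUN#1, and both sgJUN#1 libraries were level with NTC replicates 2 and 3 while NTC replicate 1 was higher.

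Complex II, succinate dehydrogenase, is also an enzyme of the citric acid cycle and has no mitochondrially encoded subunit. All 4 members were tested, 1 was higher and 3 lower, and the median log2 fold change was -0.13. SDHA, the flavoprotein with the succinate site, had 94.3, 73.3 and 87.0 CPM in NTC against 87.9 and 76.9 CPM in sgJUN#1, which gave a log2 fold change of -0.042 (95% confidence interval -0.50 to 0.41, edgeR adjusted p-value 0.976), a value made uncertain by pseudogene rows. SDHB, which carries the iron-sulfur clusters, had 252, 189 and 164 CPM in NTC against 197 and 151 CPM in sgJUN#1, which gave a log2 fold change of -0.21 (95% confidence interval -0.75 to 0.33, edgeR adjusted p-value 0.861). The 2 membrane anchors had fold changes of opposite sign, and neither passed the threshold. SDHC had 302, 229 and 214 CPM in NTC against 302 and 277 CPM in sgJUN#1, which gave a log2 fold change of 0.22 (95% confidence interval -0.25 to 0.70, edgeR adjusted p-value 0.819), with overlapping groups. SDHD (GRCh37 chromosome 11, 111957548 to 111990739) had 63.3, 49.2 and 52.1 CPM in NTC against 40.2 and 45.4 CPM in sgJUN#1, so that both sgJUN#1 libraries were below the NTC range, and its log2 fold change was -0.36 (95% confidence interval -0.84 to 0.12, edgeR adjusted p-value 0.703). SDHD is the member printed above with an NRF1 motif and an ETS core, and its interval reached from a reduction of less than 2-fold to a slight rise.

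Complex III passes electrons from ubiquinol to cytochrome c. All 10 members were tested, 8 were higher and 2 lower, with a median of 0.081. UQCRQ (GRCh37 chromosome 5, 132202322 to 132204539), a small subunit that binds next to cytochrome b, had the highest fold change of all 84 members. It stood at 719.5, 514 and 434 CPM in NTC replicates 1 to 3 and 783 and 720.2 CPM in sgJUN#1 replicates 1 and 2, so both sgJUN#1 libraries exceeded the NTC range, although sgJUN#1 replicate 2 exceeded NTC replicate 1 by less than 1 CPM. The log2 fold change was 0.44 (95% confidence interval -0.086 to 0.96, edgeR adjusted p-value 0.669). UQCRC1, a core subunit of the matrix side, had the lowest, with 65.2, 48.4 and 65.2 CPM in NTC against 54.7 and 45.1 CPM in sgJUN#1 and a log2 fold change of -0.26 (95% confidence interval -0.76 to 0.25, edgeR adjusted p-value 0.799). CYC1, cytochrome c1, which hands electrons to cytochrome c, had 136, 69.6 and 87.8 CPM in NTC against 110.4 and 88.7 CPM in sgJUN#1, which gave a log2 fold change of 0.026 (95% confidence interval -0.61 to 0.66, edgeR adjusted p-value 0.988). The NTC libraries of CYC1 spread more widely than the difference between groups.

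Complex IV, cytochrome c oxidase, had the 5 members that could not be tested. These were COX4I2, COX6A2, COX6B2, COX7A1 and COX8C, forms known from lung, muscle or testis, and none of them had more than 2 counts in any library. COX6A2 had 0 counts in all 5 libraries, so none of these forms was detectable above the floor in either group. COX7B2, a further restricted form, was tested but had few counts, with 10, 10 and 26 counts in NTC and 9 and 14 in sgJUN#1. Their common counterparts were present in every library. COX4I1, the subunit through which ATP regulates the enzyme, varied little, with 338, 342 and 314 CPM in NTC against 335 and 309 CPM in sgJUN#1, which gave a log2 fold change of -0.040 (95% confidence interval -0.45 to 0.37, edgeR adjusted p-value 0.973). COX6A1 had 233, 249 and 283 CPM in NTC against 229.5 and 214 CPM in sgJUN#1, lower in both sgJUN#1 libraries than in NTC, with a log2 fold change of -0.20 (95% confidence interval -0.63 to 0.23, edgeR adjusted p-value 0.821). COX6B1 had 179, 121 and 134 CPM in NTC against 173 and 170.3 CPM in sgJUN#1, which gave a log2 fold change of 0.25 (95% confidence interval -0.24 to 0.73, edgeR adjusted p-value 0.800), the highest in this complex, with overlapping groups. The log2 fold changes of COX7A2, COX7B and COX8A were 0.16, 0.20 and 0.071, and none was called (edgeR adjusted p-values 0.864, 0.881 and 0.960). COX6C, which had the highest mean CPM of the complex, stood at 1189.6, 812 and 800.1 CPM in NTC against 1127 and 953 CPM in sgJUN#1, which gave a log2 fold change of 0.16 (95% confidence interval -0.35 to 0.66, edgeR adjusted p-value 0.901). Of the 12 tested members of complex IV, 8 were higher and 4 lower, with a median of 0.073.

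NDUFA4, a subunit once assigned to complex I and now to complex IV, is listed in RefSeq as COXFA4 and was therefore not among the 89. It had 426, 297 and 262 CPM in NTC against 418 and 373 CPM in sgJUN#1, which gave a log2 fold change of 0.27 (95% confidence interval -0.26 to 0.80, edgeR adjusted p-value 0.800). Its hypoxia-inducible relative NDUFA4L2 (COXFA4L2) had between 2 and 10 counts per library, near the floor in both groups.

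Complex V, ATP synthase, couples proton flow through a membrane ring to ATP formation in the F1 head. Its 20 members were all tested, 15 were higher and 5 lower, and the median was 0.092. Of the 5 subunits of the F1 head, 4 were higher and 1 lower, with log2 fold changes from -0.068 (ATP5F1C) to 0.27 (ATP5F1E). ATP5F1A had 376, 289.8 and 287 CPM in NTC against 331 and 312 CPM in sgJUN#1, and ATP5F1B, the catalytic beta subunit, had 402, 258 and 300.3 CPM in NTC against 335 and 315 CPM in sgJUN#1, with log2 fold changes of 0.017 and 0.021. ATP5F1C, the central shaft, whose promoter is printed above, had 99.6, 58.6 and 76.7 CPM in NTC against 75.7 and 74.1 CPM in sgJUN#1. The c ring through which protons pass is encoded by 3 genes that give the same mature protein, ATP5MC1, ATP5MC2 and ATP5MC3. Their log2 fold changes were 0.078, -0.19 and 0.18. ATP5MC2, the lowest of the complex, had 334, 281 and 284 CPM in NTC against 259 and 267 CPM in sgJUN#1, below the NTC range in both sgJUN#1 libraries, with an edgeR adjusted p-value of 0.832. ATP5MC3 had 993, 647 and 617 CPM in NTC against 969 and 731 CPM in sgJUN#1, with NTC replicate 1 and sgJUN#1 replicate 1 well above the remaining libraries.

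ATP5MK, a small membrane subunit also known as DAPIT that helps ATP synthase form dimers, had the highest fold change of complex V. Its level was 518, 362 and 312 CPM in NTC replicates 1 to 3 and 570.5 and 471 CPM in sgJUN#1 replicates 1 and 2, which gave a log2 fold change of 0.39 (95% confidence interval -0.15 to 0.93, edgeR adjusted p-value 0.720), and the groups overlapped. ATP5MG, the g subunit of the membrane part, had the highest mean CPM of the complex and stood at 2189.7, 1644 and 1364 CPM in NTC against 2041 and 1853 CPM in sgJUN#1, which gave a log2 fold change of 0.17 (95% confidence interval -0.33 to 0.66, edgeR adjusted p-value 0.884). ATP5IF1, the inhibitor that binds the F1 head when the proton gradient collapses, had 329, 259 and 221 CPM in NTC against 337 and 301 CPM in sgJUN#1, which gave a log2 fold change of 0.24 (95% confidence interval -0.24 to 0.73, edgeR adjusted p-value 0.804). Both replicate 1 libraries were the highest of the 5.

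Some rows of the table share reads, which limits how far single members can be read. NDUFC2-KCTD14, a read-through gene that spans NDUFC2, held between 0.877% and 2.51% more counts than NDUFC2 in every library, so these are in effect 1 measurement. ATP5MF-PTCD1 likewise spans ATP5MF and held 1.71 to 2.04 times its counts. Among copies listed as pseudogenes, ATP5F1EP2 held 0.977 to 1.32 times the counts of ATP5F1E, and UQCRBP1 held 0.479 to 0.553 times those of UQCRB. How reads with several alignments were placed is not stated, so the levels of ATP5F1E and UQCRB are uncertain. The same holds for SDHA, since the pseudogene rows SDHAP1 to SDHAP4 together held 0.664 to 1.16 times its counts, and each of these rows had a negative log2 fold change, from -0.55 to -0.29. ATP5F1E, the epsilon subunit, had 204, 174 and 174 CPM in NTC against 228 and 217 CPM in sgJUN#1, and ATP5F1EP2 had 268, 170.1 and 190.1 CPM in NTC against 281 and 288 CPM in sgJUN#1, so both rows were higher in sgJUN#1 on average, with log2 fold changes of 0.27 and 0.44, neither of them called (edgeR adjusted p-values 0.749 and 0.664). The protein-coding copies UQCRHL and ATP5MGL held at most 0.0729 and 0.00374 times the counts of UQCRH and ATP5MG. Without the 2 read-through rows and these 2 copies, 55 of 80 tested members were higher and the median remained at 0.086.

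Genes that build, feed or regulate the chain were examined as accompanying lists. Of 60 assembly factors, all tested, 38 had positive and 22 negative fold changes (median log2 value 0.065), where 49.0% of all tested genes were higher. None of them passed the edgeR threshold, and 2 (3.33%) had an unadjusted p-value under 0.05, against the 8.38% of all tested genes. The smallest p-value was that of NUBPL, which inserts iron-sulfur clusters into complex I. It had 41.3, 62.3 and 55.9 CPM in NTC against 95.8 and 90.5 CPM in sgJUN#1, so both sgJUN#1 libraries were above the NTC range, with a log2 fold change of 0.81 (95% confidence interval 0.32 to 1.31, edgeR adjusted p-value 0.291). Of the 15 genes of cytochrome c and quinone synthesis, 11 were higher, with a median of 0.15, 0 passed, and 1 (6.67%) had an unadjusted p-value under 0.05, again against 8.38%. This was COQ2, which joins the ring and the side chain of ubiquinone, at 95.4, 73.3 and 66.1 CPM in NTC against 58.4 and 47.9 CPM in sgJUN#1, which gave a log2 fold change of -0.55 (95% confidence interval -1.07 to -0.035, edgeR adjusted p-value 0.565). CYCS, cytochrome c, had 241, 204 and 105 CPM in NTC against 262 and 175 CPM in sgJUN#1, which gave a log2 fold change of 0.26 (95% confidence interval -0.51 to 1.02, edgeR adjusted p-value 0.885), with wide spread in both groups.

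The citric acid cycle, the mitochondrial ribosome and the nuclear regulators had 0 edgeR calls each, against 0.206% of all tested genes. They also had 0 genes at an unadjusted p-value under 0.05, against 8.38% of all tested genes. The shorter lists hold too few genes for a count of 0 to say much. Higher in sgJUN#1 were 49.0% of all tested genes. Of 14 citric acid cycle genes 9 were higher (median 0.029), and the smallest p-value was that of IDH3B, a subunit of isocitrate dehydrogenase, with 25.3, 18.3 and 23.5 CPM in NTC against 30.5 and 26.5 CPM in sgJUN#1 and a log2 fold change of 0.34 (95% confidence interval -0.20 to 0.89, edgeR adjusted p-value 0.754). Of 77 mitochondrial ribosomal protein genes 51 were higher (median 0.095), and MRPL52 had the smallest p-value, with 59.7, 48.0 and 35.3 CPM in NTC against 76.4 and 63.0 CPM in sgJUN#1 and a log2 fold change of 0.55 (95% confidence interval -0.010 to 1.12, edgeR adjusted p-value 0.605). Of 16 regulators 10 were higher (median 0.057), and the smallest p-value belonged to POLRMT, the mitochondrial RNA polymerase, at 11, 5 and 13 counts in NTC and 21 and 16 in sgJUN#1, a log2 fold change of 0.86 (95% confidence interval -0.092 to 1.82, edgeR adjusted p-value 0.645).

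The library order of the chain was partly shared by these lists. Over the mitochondrial ribosomal proteins the median deviation from the NTC mean was 0.27, 0.0097 and -0.28 in NTC replicates 1 to 3 and 0.23 and -0.022 in sgJUN#1 replicates 1 and 2. Over the assembly factors it was 0.16, 0.022 and -0.14 in NTC replicates 1 to 3 and 0.096 and 0.037 in sgJUN#1 replicates 1 and 2. In each of the 5 lists NTC replicate 1 had the highest median. NTC replicate 2 lay below 0 for the respiratory chain (-0.12) but near 0 for the mitochondrial ribosomal proteins (0.0097).

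**Figure D4:**
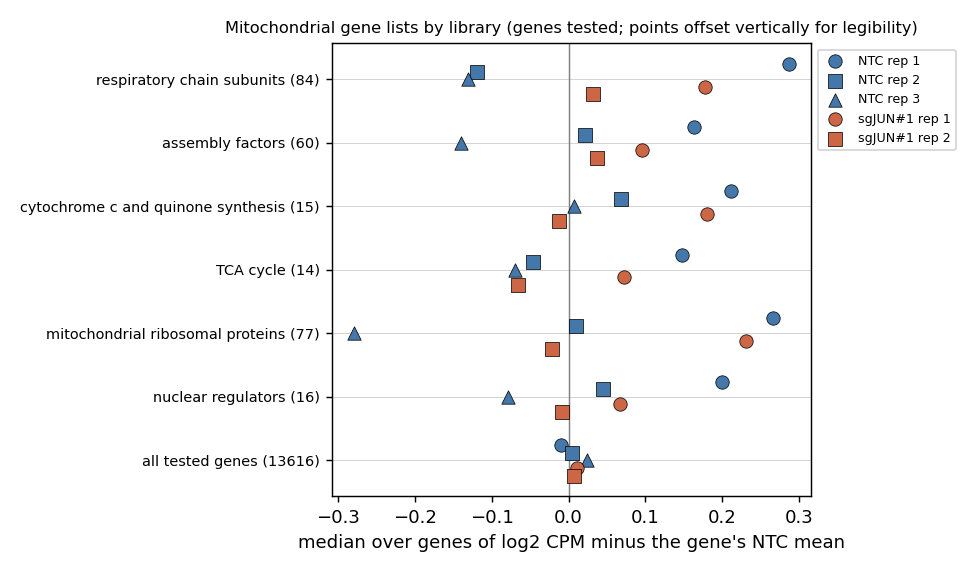
The plot of gene lists by library shows, for each list and for all tested genes (rows, with the number of genes tested), the median log2 CPM deviation from each gene's NTC mean (horizontal axis) in the 5 libraries, NTC in blue and sgJUN#1 in orange, with circle, square and triangle for replicates 1, 2 and 3. The blue circle (NTC replicate 1) lies farthest right in each mitochondrial list, at 0.29 for the respiratory chain, while all libraries lie within 0.03 of 0 for all tested genes.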

How the data were processed

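Total RNA of 5 MCF10A SAM libraries (3 NTC, 2 sgJUN#1, grouped by their titles) was sequenced with a QuantSeq 3′ forward kit, whose counts depend little on transcript length. The authors deposited a table of unnormalised read counts, which they obtained by trimming with cutadapt (4.2), alignment to hg19 with Bowtie2 (2.3.5.1), per the labels, and counting over genes in R. Gene annotation, strand, multiple alignments and molecular identifiers are not given in the sources used here, so the floor covers counting error only.

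Symbols came from RefSeq (23308 of 23459 genes), positions from GENCODE 44 on GRCh37, matched by symbol. Counts were tested in edgeR 4.0.16 (R 4.3.3) with TMM scaling, filterByExpr (13616 genes kept), robust quasi-likelihood fits, group as the only term and Benjamini-Hochberg adjustment over all tested genes. Each SE was derived from the fold change and its F statistic, and the 95% interval uses the fit's degrees of freedom. CPM use TMM-scaled library sizes, and log2 CPM a prior count of 2. The scripts were tested on simulated data. Alternatives were DESeq2 1.42.0, limma-voom (limma 3.58.1), other scalings and filters, leaving out each library, and the replicate block.

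Members and lists were chosen with earlier results of these data known. Text names JUN, members past the threshold (0) or at an unadjusted p-value under 0.05 (0), the highest, lowest and most abundant of each complex, common and restricted complex IV forms, SDHA to SDHD, CYC1, CYCS, and the smallest p-value of each list. Further members are named for their role or promoter, after their values were seen, and without a p-value of the list alone.

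Promoter motifs were searched as exact letters. The NRF1 and YY1 letters are shortened forms, set after longer ones had been searched, and those longer ones also occurred at a higher share in the members' windows than in all windows. The values of 1 member are not reported here by name, but it is included in all counts and medians. In one place the study states, for this comparison, fewer replicates than the labels list for NTC, and all 3 labelled NTC libraries were used.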

Additional observations from a re-analysis of the deposited data

How the results depend on the processing

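The count of members past the threshold was 0 under all 13 alternatives, including DESeq2, limma-voom, no filter (88 members tested) and the replicate block, and 0 throughout the fits without 1 library. The NTC and sgJUN#1 replicate numbers were not taken to pair the libraries, since the labels do not say that they mark a shared batch. The labels also give each library a sample number. These numbers are adjacent for the NTC and sgJUN#1 libraries of replicate 1, and again for those of replicate 2. What they stand for is not stated. The correlation over genes of the replicate 1 minus 2 differences of the groups was 0.0146. Yet replicate 1 exceeded replicate 2 in 78 of the 84 members in NTC and in 66 in sgJUN#1. Whether the replicate numbers pair the libraries is thus not settled. The replicate block changed no call among the members. Since replicate 3 exists in NTC only, that fit compared the groups over replicates 1 and 2 alone. With the replicate block JUN passed, at 2.82 (edgeR adjusted p-value 1.15e-04), 103 of all tested genes passed in place of 28, and CYCS turned to -0.047. The count over all genes was 136 with DESeq2, 148 with no filter, 18 with a minimum of 10 counts per library, and 10 to 57 without 1 library (10 without NTC replicate 1, 56 and 57 without NTC replicates 2 and 3). JUN also passed with DESeq2 (3.24, adjusted p-value 7.36e-12) and limma-voom (3.47, limma adjusted p-value 0.0342). Without 1 library JUN ran from 2.84 to 3.68, and adjusted p-values under 0.05 came without NTC replicate 2 or 3. The cause was not tested.

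Medians of the complexes depended on single libraries. Without 1 library the medians ran from -0.0003 to 0.26 for complex I, -0.21 to 0.012 for II, -0.054 to 0.31 for III, -0.030 to 0.23 for IV and -0.034 to 0.25 for V. The sign turned without NTC replicate 2 (I, IV), NTC replicate 3 (III, V), sgJUN#1 replicate 1 (III, IV, V), and NTC replicate 1 or sgJUN#1 replicate 2 (II). An alternative chosen after seeing the data, without read-through rows and copies, left the median over all members at 0.086. All genes had medians between -0.027 and 0.0036 under every alternative. Of the 28 tested genes other than JUN that the naming rule chose, 21 kept their direction and 0 gained a call. For other genes named in the text, direction under the alternatives was not tallied. Direction turned without 1 library for COX7B2 (-1.17 to 0.24), COX4I1 (-0.099 to 0.022), COX7B (-0.031 to 0.45), COX8A (-0.018 to 0.24), SDHA (-0.14 to 0.055), CYC1 (-0.16 to 0.34) and CYCS (-0.065 to 0.52). Over 2 sgJUN#1 libraries, changes well below 2-fold cannot be resolved.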

Other observations

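Transcripts of the members are short. The median GENCODE protein-coding transcript length was 648 bases over the 84 tested members and 2032 over 12372 other tested genes with a length. The 1052 other tested genes of 600 to 800 bases had median deviations from the NTC mean of 0.050 in NTC replicate 1 and 0.053 in sgJUN#1 replicate 1, where the members had 0.29 and 0.18. Across 12456 tested genes, which share the 5 libraries and are not independent, Spearman's rho between transcript length and the deviation was -0.20 in NTC replicate 1, 0.15 in NTC replicate 3 and -0.078 in sgJUN#1 replicate 1. The part of transcript length in the library order was not tested further.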
